A study of Rattus norvegicus with 24 samples.

Results

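The comparison set 16 livers of rats housed in constant darkness against 8 livers of rats kept under a light-dark cycle, out of 24 livers in the series. The 16 dark-housed livers were all those labelled darkness (8) or DL.reuteri (8) whatever the rats were given by mouth, and the genes of interest were those whose mean level lay on the same side of control in both dark-housed groups. The animals were female Sprague-Dawley rats, 14 weeks old at collection and enrolled at 6 weeks. Darkness rats spent 8 weeks without light and received saline by daily gavage. DL.reuteri rats spent the same 8 weeks without light and received the gut bacterium Limosilactobacillus reuteri at 100 mg per day. Control rats received saline under 12 h of light per day. The series was made to follow lipid metabolism in rats that develop features of polycystic ovary syndrome in constant darkness, and setting all dark-housed livers against control asks what dark housing had in common with and without the bacterium. Livers were taken at 1 time of day after an overnight fast, so a lower level and a shifted daily phase cannot be told apart. Rats were housed several to a cage, and since the labels give no cage the rats were treated as independent.

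The liver keeps daily time with a feedback loop of transcription factors. The proteins encoded by Clock, the related gene Npas2 and Arntl (Bmal1) switch on the Per and Cry genes through DNA elements called E-boxes. The PER and CRY proteins then shut their own activators down. Light resets the brain's master clock, and feeding, body temperature and glucocorticoids pass the time on to the liver, where the loop sets the daily rhythm of bile acid, cholesterol, glucose and drug metabolism.

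Expression was deposited as FPKM, fragment counts divided by transcript length and by the library's mapped fragments, and was compared as log2(FPKM + 1), a scale that understates the change of genes at low levels. Of 30958 rows, 12142 genes reached 0.5 FPKM in at least 8 libraries and were tested. No depth is stated for the libraries. Relative depth was estimated from the most frequent ratio between a library's low FPKM values and those of control 1 for the same genes. It was 0.841 to 1.62 in darkness, 0.856 to 1.28 in DL.reuteri and 0.829 to 1.37 in control livers, taking control 1 as 1. Mitochondrially encoded transcripts took 38.2 ± 16.9% of the FPKM sum in darkness, 39.1 ± 22.4% in DL.reuteri and 36.9 ± 11.03% in control livers (SD, n = 8 each). They took 84.99% in DL.reuteri 3, the library farthest out on the first principal component, which held 39.1% of the variance. The liver label was borne out by 10 of 10 hepatocyte markers, whose summed FPKM was 45560 to 90180 in darkness, 10680 to 86560 in DL.reuteri and 41810 to 84110 in control livers, the low value being DL.reuteri 3. Adipocyte markers were high in 2 livers, with sums of 263.5 FPKM in DL.reuteri 2 and 382.9 FPKM in control 8 against medians of 47.0 in darkness, 41.5 in DL.reuteri and 50.2 in control livers. Of the 61 genes of the naming rule (given with the methods) at an unadjusted p under 0.05, 5 left that threshold without DL.reuteri 3 (Irs2, Lbp, Nfkb2, Nfkbia and Per1) and 12 without control 8 (those 5 except Lbp, with Tat, Klb, Cat, Sesn2, Axin2, Hmgcs1, Atp5e and Ireb2). In bulk liver, fewer cells of a type and less RNA per cell cannot be told apart.

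No gene differed between dark-housed and control livers at an adjusted p under 0.05 (limma, Benjamini-Hochberg over all genes tested, two-sided), that is 0% of 12142 genes in either direction. The smallest adjusted p was 0.0857, for Ptpn9. At an unadjusted p under 0.05 stood 542 genes, 4.46% of those tested, a share below the rate that this threshold admits where nothing differs. Of these, 161 (1.33% of genes tested) had a higher mean and 366 (3.01%) a lower mean than control in both dark-housed groups, and 15 lay on opposite sides of control. Whatever the p, 2268 genes (18.7%) had a higher mean and 4559 (37.5%) a lower mean than control in both dark-housed groups, and the counts for gene lists are to be read against these shares. Rescaling the libraries by median ratios gave 346 genes higher and 330 lower, and rescaling to the FPKM sum outside mitochondrial transcripts gave 375 higher and 238 lower, so the excess of lower genes depended on the scale. Without DL.reuteri 3 the counts were 332 higher and 384 lower. The genes described here are therefore the front of a ranking and not a set of called genes, and their values are given for what they are.

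Both dark-housed groups were also compared with the same 8 control livers one at a time. At an unadjusted p under 0.05 in each of these comparisons, 17 genes (0.14% of those tested) were higher and 64 (0.527%) were lower. After adjustment, no gene differed between darkness and control livers, where 330 genes stood at an unadjusted p under 0.05, and 17 genes differed between DL.reuteri and control livers, where 1607 stood there. The 2 dark-housed groups were not alike among themselves. DL.reuteri and darkness livers differed at an unadjusted p under 0.05 in 2039 genes, 16.8% of those tested. Among the 161 genes with higher means 64 differed in this way (39.8%), all of them further from control in DL.reuteri livers, and among the 366 with lower means 95 did (26.0%), 91 of them further from control in DL.reuteri livers.

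Ptpn9 (ENSRNOG00000017600), a cytoplasmic tyrosine phosphatase with a lipid-binding domain, led the ranking. It ran between 1.71 and 5.38 FPKM with a median of 4.25 in darkness livers and between 3.33 and 7.50 with a median of 5.10 in DL.reuteri livers, against 1.32 to 3.16 with a median of 1.85 in control livers. Above the highest control lay 13 of 16 dark-housed livers, and only darkness 7 lay below the control median. The mean over dark-housed livers was 2.32 times that of control, and the log2 difference was 0.87 ± 0.16 (SE, 95% interval 0.55 to 1.19). Its adjusted p passed 0.05 under 9 of the 40 alternatives, among them each of the 3 rescalings and leaving out control 3, darkness 7 or DL.reuteri 3 (adjusted p = 0.0362 without DL.reuteri 3), and was 0.252 without control 8, with a range of 0.000337 (array weights) to 0.414 over all 40. Ptpn9 was thus the gene nearest to a call, on 1 side or the other of the threshold according to the scaling, covariates, weights and libraries used.

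**Figure D1:**
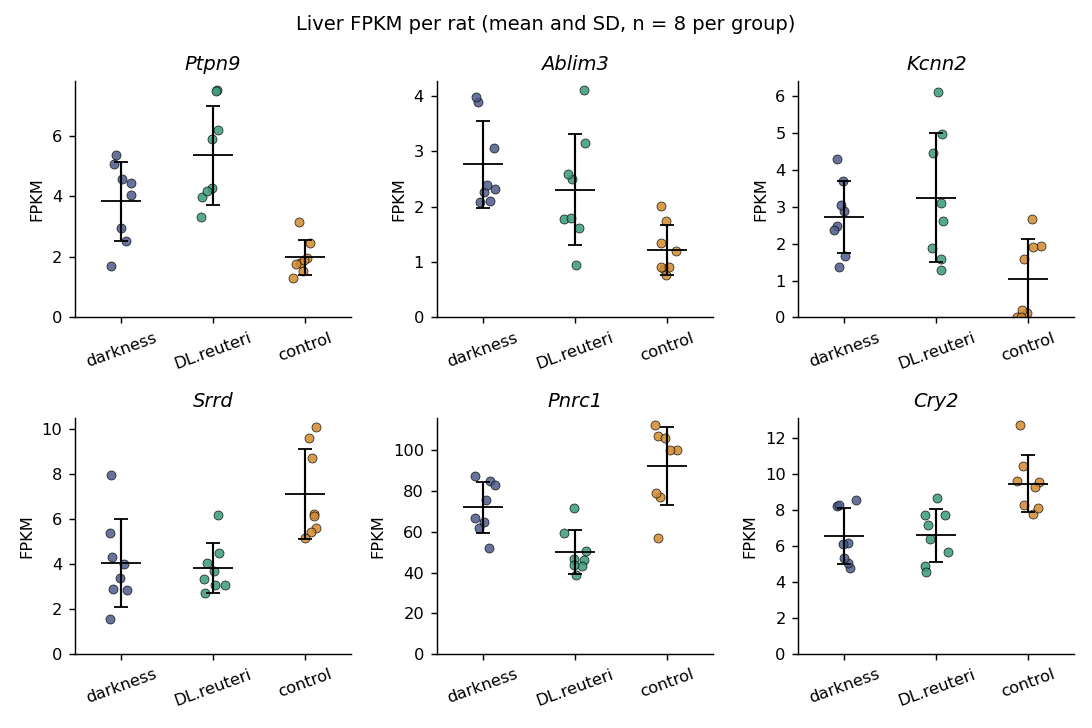
FPKM of 3 leading genes with higher means (upper row) and 3 with lower means (lower row) in dark-housed livers. Each point is 1 rat, with the group's mean and SD (n = 8 per group); 13 of 16 dark-housed livers lie above every control for Ptpn9, and 12 of 16 lie below every control for Cry2.

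Ablim3, which encodes an actin-binding LIM protein, was the next. Its level was 2.08 to 3.97 FPKM in darkness livers (median 2.36) and 0.942 to 4.09 in DL.reuteri livers (median 2.15), against 0.759 to 2.01 in control livers (median 1.06). Every darkness liver lay above the highest control, and 12 of 16 dark-housed livers did so in all. Kcnn2, a small-conductance calcium-activated potassium channel, averaged 2.73 ± 0.979 FPKM in darkness, 3.25 ± 1.75 in DL.reuteri and 1.06 ± 1.09 in control livers (SD, n = 8 each). The control livers were split, with control 2, 3, 4 and 6 at or under 0.202 FPKM (control 3 and 6 are listed at 0) and the other 4 between 1.59 and 2.68 FPKM, while all 16 dark-housed livers lay above the control median and 8 above the highest control. The log2 differences were 0.65 ± 0.15 for Ablim3 and 1.07 ± 0.25 for Kcnn2 (SE), and the adjusted p was 0.595 for both.

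Cyp8b1, the sterol hydroxylase that directs bile acid synthesis towards cholic acid, was the most abundant of the leading genes with higher means. It had 58.8 to 226 FPKM in darkness livers (median 95.7) and 66.7 to 314 in DL.reuteri livers (median 193), against 27.0 to 105 in control livers (median 69.7). The mean was 2.12 times that of control, 11 of 16 dark-housed livers lay above every control, and the log2 difference was 1.01 ± 0.27 (SE, adjusted p = 0.782). After rescaling to the FPKM sum outside mitochondrial transcripts the difference was 1.12 with an adjusted p of 0.0289, and over the 40 alternatives the adjusted p ran from 0.0164 to 1. The difference was 0.62 in darkness and 1.39 in DL.reuteri livers, each against control. Between DL.reuteri and darkness it was 0.77 (limma, unadjusted p = 0.0185, adjusted p = 0.199). The pooled difference from control had an unadjusted p of 0.000824.

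The other leading genes with higher means were less abundant. Cep63, a centrosomal protein, had 3.16 ± 0.378 FPKM in darkness, 3.75 ± 0.509 in DL.reuteri and 2.504 ± 0.254 in control livers (SD, n = 8 each), with 14 of 16 dark-housed livers above every control, the largest number among the 15. Nkiras1, a Ras-like protein that binds the NF-kB inhibitor, had 2.504, 3.46 and 1.82 FPKM in the same order of groups, and Ficd, an enzyme that modifies the endoplasmic reticulum chaperone BiP, had 4.10, 5.24 and 2.27 FPKM. In Tbx3, a transcription factor of hepatocytes around the central vein, and in AABR07070032.1, a gene without a symbol, the darkness mean was close to control. Tbx3 had 1.36 ± 0.671 FPKM in darkness, 3.27 ± 0.873 in DL.reuteri and 1.24 ± 0.680 in control livers, and its pooled difference of 0.51 came almost wholly from DL.reuteri livers (0.95, against 0.07 in darkness livers). The remaining ones were Rac3, AABR07024058.3, Wdr89, Mtmr4, Matr3 and AABR07047262.1, with log2 differences of 0.37 to 0.56 and adjusted p from 0.782 to 0.902. In AABR07024058.3, Wdr89, Mtmr4 and Matr3 they were 0.20 to 0.24 in darkness and 0.54 to 0.58 in DL.reuteri livers. These 4 genes differed between DL.reuteri and darkness livers at an unadjusted p under 0.05 (limma). So did Ptpn9, Nkiras1, Cyp8b1, Tbx3 and AABR07070032.1, but not Rac3 or AABR07047262.1.

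**Figure D2:**
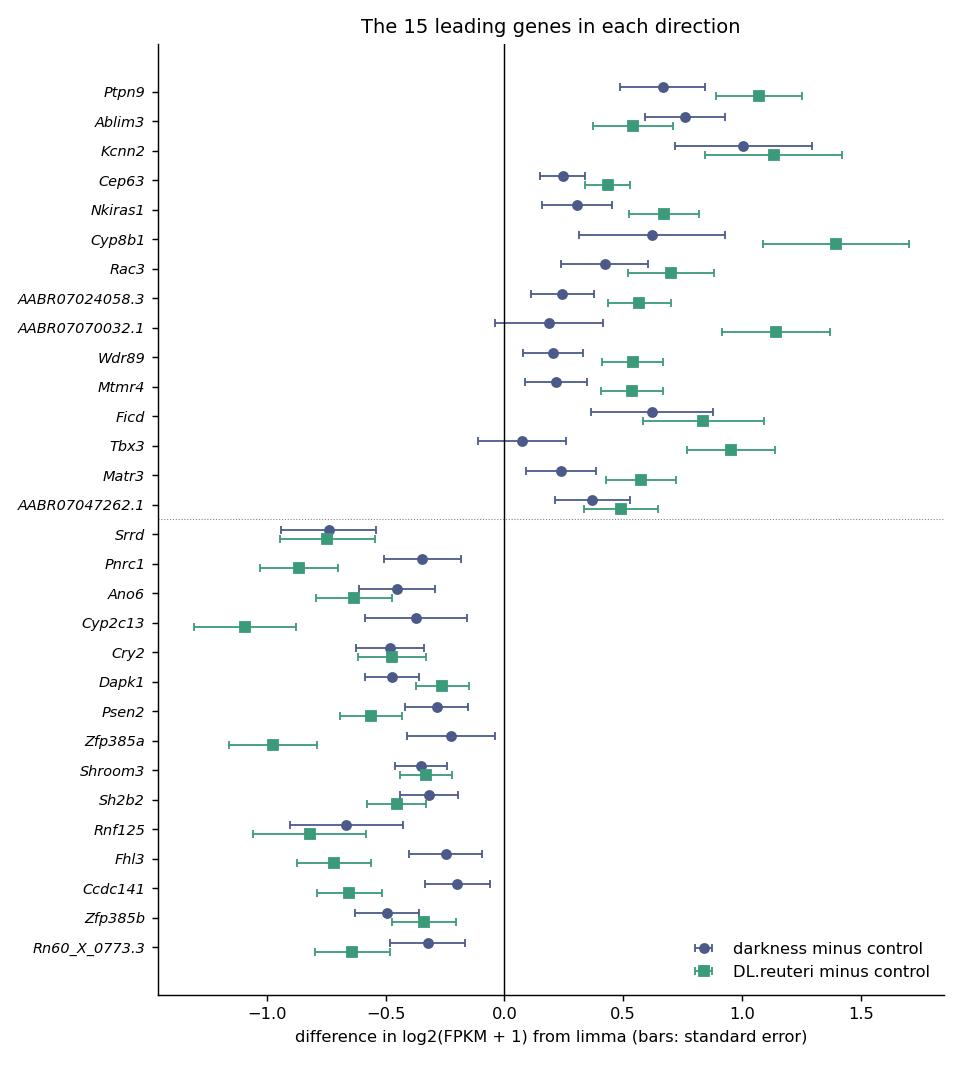
Differences in log2(FPKM + 1) from control for darkness livers (circles) and DL.reuteri livers (squares), with standard errors, for the 15 leading genes with higher means (top) and the 15 with lower means (bottom). Both groups share the 8 control livers; the points of Srrd (both -0.74) and Cry2 (-0.48 and -0.47) nearly coincide, while those of Tbx3 (0.07 and 0.95) lie apart.

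Srrd (ENSRNOG00000000662) led the genes with lower means. It encodes a protein with the domain of SRR1, a regulator of the circadian clock in the plant Arabidopsis. Its level was 1.55 to 7.97 FPKM in darkness livers (median 3.70) and 2.70 to 6.20 in DL.reuteri livers (median 3.51), against 5.15 to 10.1 in control livers (median 6.19). Below the lowest control lay 13 of 16 dark-housed livers, and the exceptions were darkness 5, darkness 8 and DL.reuteri 5. The log2 difference was -0.74 in each dark-housed group, with a pooled SE of 0.17 and an adjusted p of 0.595.

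Pnrc1, a coactivator of nuclear receptors, was the most abundant leading gene with a lower mean. It had 71.9 ± 12.5 FPKM in darkness, 50.1 ± 10.7 in DL.reuteri and 92.4 ± 19.2 in control livers (SD, n = 8 each), and all 16 dark-housed livers lay below the control median. The log2 difference was -0.60 ± 0.14 (SE, adjusted p = 0.595), with -0.34 in darkness and -0.86 in DL.reuteri livers, the second of which passed its own test (adjusted p = 0.0333). Shroom3, a regulator of the actin cytoskeleton, had 2.25 ± 0.409 FPKM in darkness, 2.32 ± 0.550 in DL.reuteri and 3.13 ± 0.307 in control livers, and 14 of 16 dark-housed livers lay below every control. In Ccdc141, a coiled-coil protein, 15 of 16 lay below every control and the remaining one, darkness 2 at 4.04 FPKM, lay above every control. The log2 difference of Ccdc141 was -0.20 in darkness and -0.65 in DL.reuteri livers.

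Ano6 encodes a phospholipid scramblase, Psen2 a subunit of the gamma-secretase, Dapk1 a death-associated kinase and Sh2b2 an adaptor of the insulin receptor. Dapk1 had 4.10 ± 0.590 FPKM in darkness, 4.94 ± 1.02 in DL.reuteri and 6.06 ± 0.662 in control livers, and Psen2 had 13.9 ± 2.84, 11.2 ± 1.71 and 17.0 ± 2.48 FPKM in the same order (SD, n = 8 each). In each of the 2 genes 12 of 16 dark-housed livers lay below every control. Ano6 had medians of 2.02 FPKM in darkness, 1.47 in DL.reuteri and 2.71 in control livers, and its log2 difference was -0.54, or -0.46 without control 8, its highest control. Rnf125, a ubiquitin ligase that restrains antiviral sensing, had 23.9 ± 7.82 FPKM in darkness, 21.2 ± 6.86 in DL.reuteri and 39.0 ± 14.3 in control livers, and all 16 dark-housed livers lay below the control median. Cyp2c13, a cytochrome P450 known in rats for its male-biased expression, was low in these females and had 2.71 FPKM in darkness, 1.23 in DL.reuteri and 3.85 in control livers. Zfp385a, Zfp385b, Fhl3 and Rn60_X_0773.3 completed the 15, with log2 differences of -0.60 to -0.42. In darkness and DL.reuteri livers they were -0.22 and -0.97 for Zfp385a and -0.25 and -0.72 for Fhl3. For Rn60_X_0773.3 they were -0.32 and -0.64, and for Zfp385b -0.49 and -0.34. Across all genes tested, none had its 16 dark-housed livers wholly outside the range of the 8 control livers.

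Among the 12 core clock genes tested and reported, none had a higher mean and 9 a lower mean in both dark-housed groups (37.5% of all genes tested were lower in this way), and 3 of the 9 stood at an unadjusted p under 0.05 (3.01% of all genes). Their median log2 difference was -0.28, against -0.036 over all genes tested, and it ran from -0.39 to -0.20 over 39 alternatives with the same genes. None of them passed the adjusted test. Those 3 were Cry2, Cry1 and Per1, which all encode repressors of the loop.

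Cry2 was the clock gene with the smallest p. It had 4.77 to 8.59 FPKM in darkness livers (median 6.16) and 4.59 to 8.70 in DL.reuteri livers (median 6.80), against 7.79 to 12.7 in control livers (median 9.45). Below the lowest control lay 12 of 16 dark-housed livers, and none reached the control median. The log2 difference was -0.48 ± 0.12 (SE, adjusted p = 0.782). Cry1 had 3.29 ± 1.29 FPKM in darkness, 2.53 ± 1.03 in DL.reuteri and 4.70 ± 1.56 in control livers (SD, n = 8 each), with a log2 difference of -0.57 ± 0.18 (SE, adjusted p = 0.902). In Cry1, 8 of 16 dark-housed livers lay below every control and 15 of 16 below the control median.

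Per1 had 2.68 to 12.1 FPKM in darkness livers (median 5.41) and 1.31 to 16.9 in DL.reuteri livers (median 7.15), against 2.92 to 28.2 in control livers (median 14.1). The groups overlapped widely, although 15 of 16 dark-housed livers lay below the control median, and the log2 difference was -0.74 ± 0.36 (SE, adjusted p = 1). Its unadjusted p was 0.0491, and it was 0.136 without control 8. Per2 had a median of 1.76 FPKM in darkness livers, and in DL.reuteri livers it spread between 0.726 and 18.7 with a median of 3.03, against 2.01 to 9.08 with a median of 4.43 in control livers. The means of Per2 were 2.40, 6.08 and 5.04 FPKM in darkness, DL.reuteri and control livers, so that the mean of FPKM and the mean of log2 values fell on different sides of control in DL.reuteri livers. Per3 differed in sign between the groups, with 0.544 FPKM in darkness, 2.52 in DL.reuteri and 0.714 in control livers. The 3 livers DL.reuteri 5, 6 and 7 had 6.44, 4.27 and 6.09 FPKM of Per3, where the other 5 of that group had 0.146 to 1.22, and the same 3 were the highest of their group in Per2 (9.32 to 18.7 FPKM), each above every control in both genes.

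Arntl, an activator of the loop, had 10.3 ± 1.17 FPKM in darkness, 8.92 ± 3.62 in DL.reuteri and 11.1 ± 1.98 in control livers (SD, n = 8 each), a log2 difference of -0.22 with an interval of -0.54 to 0.10. Clock (2.44, 1.91 and 2.49 FPKM) and Npas2 (14.3, 8.17 and 13.2 FPKM, in the same order of groups) had differences of -0.07 and -0.33 with intervals that include 0. Rora, a nuclear receptor that drives Arntl, Bhlhe40, a repressor, and Csnk1d and Csnk1e, kinases of the PER proteins, had differences between -0.38 and -0.11, and the sign of Clock turned when libraries were rescaled to the FPKM sum outside mitochondrial transcripts.

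**Figure D3:**
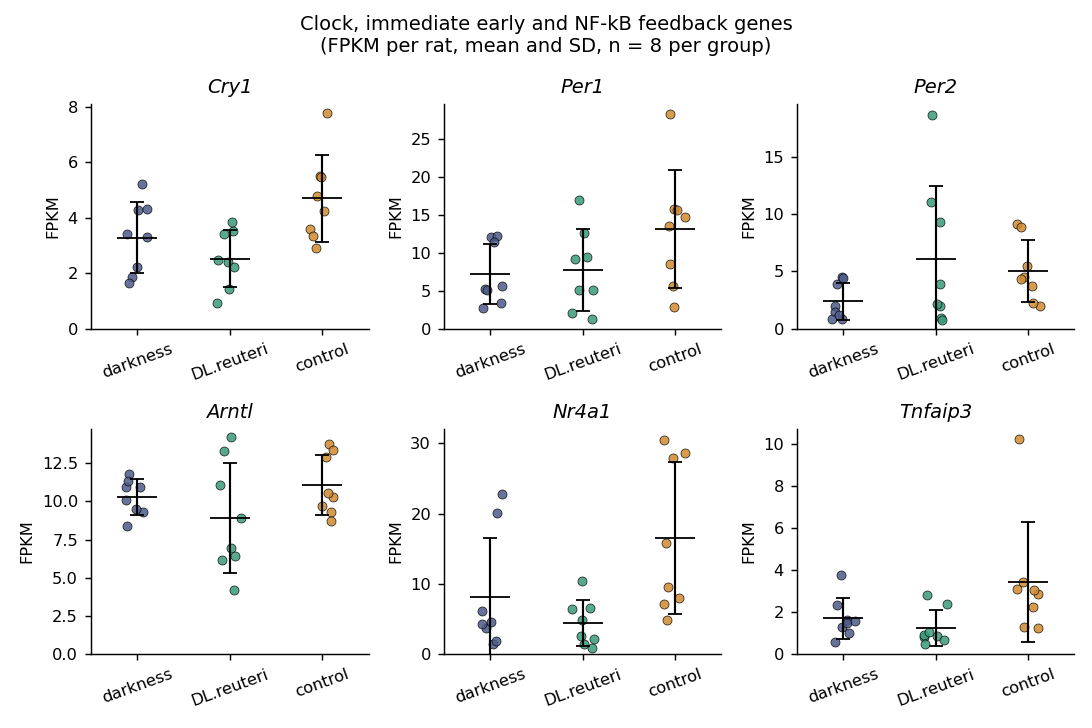
FPKM of 4 clock genes (Cry1, Per1, Per2 and Arntl), the immediate early gene Nr4a1 and the NF-kB feedback gene Tnfaip3. Each point is 1 rat, with the group's mean and SD (n = 8 per group); the medians of Per1 are 5.41 FPKM in darkness, 7.15 in DL.reuteri and 14.1 in control livers, and the highest Tnfaip3 value, 10.2 FPKM, is control 8.

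The genes that the clock drives directly were less uniform. Of 12 tested, 7 had a lower mean of log2 values in both dark-housed groups (against 37.5% of all genes) and none a higher one. None stood at an unadjusted p under 0.05 (median log2 difference -0.17). Nampt counted among the 7 by its log2 values only. Its mean FPKM was 19.3 in darkness, 22.4 in DL.reuteri and 20.7 in control livers. The PAR-domain factors Dbp and Tef, which act through D-boxes, lay close to control in darkness livers (log2 differences -0.02 and -0.10). In DL.reuteri livers their means were higher (0.90 and 0.52). Dbp had 0.945 ± 0.127 FPKM in darkness and 4.67 ± 5.47 in DL.reuteri livers, against 0.990 ± 0.325 in control livers, and Tef had 1.68 ± 0.205, 3.45 ± 1.90 and 1.95 ± 0.835 FPKM in the same order (SD, n = 8 each). In both genes 3 of 16 dark-housed livers lay above every control, and these were again DL.reuteri 5, 6 and 7, with 11.1, 7.82 and 13.9 FPKM of Dbp. DL.reuteri 1, 2 and 3 lay below every control in Dbp, at 0.493 to 0.538 FPKM. Hlf also differed in sign, with a log2 difference of -0.35 in darkness and 0.02 in DL.reuteri livers. Nfil3, which competes for D-boxes, had 69.4 ± 28.7, 55.4 ± 18.9 and 83.0 ± 28.7 FPKM, a log2 difference of -0.43 with an interval of -0.89 to 0.03. Ccrn4l, which encodes nocturnin, had medians of 2.91 FPKM in darkness, 8.86 in DL.reuteri and 10.5 in control livers, and its interval ran from -1.80 to 0.13. Lpin1, Rgs16, Coq10b, Usp2, Wee1, Nampt and Mfsd2a had differences of -0.47 to -0.04, and the sign of the last 4 (Usp2, Wee1, Nampt and Mfsd2a) turned under at least 1 alternative.

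Immediate early genes, which cells switch on within minutes of a stimulus, had the lowest median of the 34 functional lists. Of 21 tested, 15 had a lower mean in both dark-housed groups and none a higher mean (37.5% and 18.7% of all genes), 5 stood at an unadjusted p under 0.05 (3.01% of all genes were lower there), and the median log2 difference was -0.44 (-0.33 in darkness and -0.52 in DL.reuteri livers). Over 39 alternatives the median ran from -0.58 to -0.27, and it was -0.32 without control 8. None passed the adjusted test. Nr4a1, an orphan nuclear receptor of this class, had 1.40 to 22.7 FPKM in darkness livers (median 4.45) and 0.855 to 10.4 in DL.reuteri livers (median 3.78), against 4.88 to 30.5 in control livers (median 12.7). Below the lowest control lay 9 of 16 dark-housed livers, and the log2 difference was -1.41 ± 0.41 (SE, adjusted p = 0.782), the largest among the genes named here that lay on the same side in both groups.

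Jund, an AP-1 subunit, had 78.0 ± 32.0 FPKM in darkness, 46.4 ± 19.7 in DL.reuteri and 93.1 ± 34.0 in control livers, and Ier5 had 10.4 ± 3.21, 7.61 ± 2.21 and 13.4 ± 3.90 FPKM in the same order (SD, n = 8 each). The log2 differences were -0.66 ± 0.23 and -0.53 ± 0.17 (SE). Fosl2, another AP-1 subunit, averaged 0.569 FPKM in darkness, 0.548 in DL.reuteri and 1.40 in control livers. Btg2, an antiproliferative gene, averaged 41.7, 27.3 and 58.2 FPKM in the same order; both were named after their values were seen, as the rest of the 5. Fos itself was not among them, with 5.74 FPKM in darkness, 8.83 in DL.reuteri and 6.90 in control livers.

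Promoter sequences from RefSeq (rat build GRCr8, 250 bases before to 50 after the start) were searched on both strands for elements of the clock and of immediate early genes. The cAMP response element TGACGTCA was in 1.83% of all 33469 promoters and in 3.03% of the 8282 promoters matched to genes tested. It was in 4 of 15 matched immediate early genes (Btg2, Dusp1, Jund and Maff), in 12 of 235 matched genes with lower means (5.11%) and in 3 of 108 with higher means (2.78%). The E-box CACGTG was in 9.53% of promoters of genes tested, in 8.51% of those with lower and 7.41% of those with higher means. The D-box TTATGNAA was in 1.91%, 2.55% and 0.93% in the same order. Of the 15 matched immediate early genes, 4 held an E-box (Dusp1, Gadd45b, Klf6 and Maff) and 1 a D-box (Jund). Of 18 matched core clock and clock output genes, 2 held an E-box (Bhlhe40 and Tef) and 2 a D-box (Coq10b and Per2). A heat shock element of 3 alternating GAA units was in no promoter of either set and in 0.5% of those of genes tested. Such a match is only a stretch of letters and does not show a bound site. The stretches around one element each are shown for the leading lower gene Srrd (chr12:49955105-49955130, + strand, its element starting at base 36 of the transcript), for Jund (chr16:18769955-18770021, - strand), for the clock gene Per2 (chr9:99497148-99497215, - strand) and for Tnfaip3 (chr1:15544020-15544085, - strand), with the element in capitals: cAMP response element in Srrd and Jund, D-box in Per2, E-box in Tnfaip3.
Srrd: tggcgcgctggTGACGTCAgtgacat
Jund: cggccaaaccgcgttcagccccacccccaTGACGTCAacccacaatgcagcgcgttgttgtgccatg
Per2: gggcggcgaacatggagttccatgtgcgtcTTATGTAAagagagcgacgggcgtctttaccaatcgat
Tnfaip3: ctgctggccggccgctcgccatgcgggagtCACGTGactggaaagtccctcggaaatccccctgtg

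Feedback genes of NF-kB, the transcription factor of inflammatory signalling, also had lower means. Of 23 tested (chemokines included), 15 had a lower mean and 2 a higher mean in both dark-housed groups (37.5% and 18.7% of all genes), 3 stood at an unadjusted p under 0.05 (3.01% of all genes) and the median log2 difference was -0.20 (-0.24 to -0.08 over 39 alternatives). Those 3 were Tnfaip3, Nfkbia and Nfkb2. Tnfaip3, the ubiquitin-editing enzyme that ends NF-kB signalling, had 0.579 to 3.79 FPKM in darkness livers (median 1.54) and 0.484 to 2.83 in DL.reuteri livers (median 0.888), against 1.25 to 10.2 in control livers (median 2.97). Its log2 difference was -0.73 ± 0.23 (SE, adjusted p = 0.902), and -0.51 without control 8, the highest value. Nfkbia, the inhibitor IkB-alpha, had 28.8 ± 10.5 FPKM in darkness, 25.5 ± 11.7 in DL.reuteri and 37.6 ± 11.7 in control livers, and Nfkb2 had 4.70, 3.93 and 5.53 FPKM. Only Tnfaip3 of the 3 kept an unadjusted p under 0.05 without control 8 (Nfkbia 0.0842, Nfkb2 0.137) or without DL.reuteri 3 (0.051 and 0.0606).

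Markers of the macrophages of the liver, Kupffer cells, lay on 1 side. All 11 tested had a lower mean in both dark-housed groups, as did 37.5% of all genes, none of the 11 at an unadjusted p under 0.05, with a median log2 difference of -0.33, or -0.18 without DL.reuteri 3. The summed FPKM of the whole list of 12 was 281.6 to 751.4 in darkness (median 413.8), 51.1 to 878.3 in DL.reuteri (median 361.6) and 348.5 to 821.1 in control livers (median 521.5), and no marker was at 0 in every library. The groups overlapped over most of this range. Stellate cell markers were lower in both groups in 10 of 11 genes (median -0.25), erythroid ones in 6 of 7 (median -0.31, and -0.18 without control 8) and adipocyte ones in 3 of 6, which is near the share of all genes (median -0.24, and 0.086 without control 8). Among these 3 lists Slc4a1, the red cell anion exchanger, and Cfd, adipsin, stood at an unadjusted p under 0.05 and were lower. Without control 8, no adipocyte marker was lower in both groups at that threshold. The part of these cell types in the lower means of immediate early and NF-kB genes was not tested.

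In metabolism, bile acid genes stood out for single members and not as a list. Of 18 tested, Cyp8b1, Cyp7a1 and Klb had higher means at an unadjusted p under 0.05 (1.33% of all genes; Klb 0.0705 without control 8), while the median log2 difference was 0.0031. Cyp7a1, the rate-limiting enzyme of bile acid synthesis, had 36.9 ± 22.8 FPKM in darkness, 107 ± 50.5 in DL.reuteri and 38.4 ± 26.4 in control livers (SD, n = 8 each), and Klb, the co-receptor through which an intestinal hormone restrains it, had 2.63 ± 0.760, 5.40 ± 2.47 and 2.57 ± 0.669 FPKM. In both genes the pooled difference (0.84 for Cyp7a1 and 0.39 for Klb) lay in DL.reuteri livers, with 0.05 and 0.02 in darkness livers. In the cholesterol synthesis list 12 of 25 genes had a higher mean and 3 a lower mean in both groups, against 18.7% and 37.5% of all genes (median 0.13, and 0.07 to 0.24 over 39 alternatives). Only Lss, lanosterol synthase, stood at an unadjusted p under 0.05 among those 12, with 2.66 ± 1.25, 3.47 ± 1.24 and 2.06 ± 0.588 FPKM, whereas Hmgcs1 had opposite signs in the 2 groups (-0.08 in darkness and 1.31 in DL.reuteri livers).

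Glucocorticoid-induced genes were represented by Sgk1, a kinase, and Tat, tyrosine aminotransferase, the 2 of 17 genes tested at an unadjusted p under 0.05 (3.01% of all genes). Sgk1 had 4.66 ± 1.003 FPKM in darkness, 4.91 ± 1.44 in DL.reuteri and 6.77 ± 1.84 in control livers (SD, n = 8 each), with 15 of 16 dark-housed livers below the control median. Tat had 589 ± 203, 779 ± 373 and 916 ± 179 FPKM, and 8 of 16 lay below every control, but its unadjusted p was 0.0796 without control 8. The list's median was -0.18 (-0.29 to -0.017 over 39 alternatives, -0.11 without control 8 and -0.030 with DL.reuteri 2 and 3 left out as well), and 8 of its genes had lower and 2 higher means in both groups, the first a share near the 37.5% of all genes. Of the insulin and AMPK genes, Irs2, the insulin receptor substrate of the fasted liver, was the 1 of 29 at that threshold, a share near that of all genes, with 11.7 ± 7.78, 7.94 ± 5.62 and 19.5 ± 11.8 FPKM. Below the control median lay 14 of 16 dark-housed livers, and 1 lay below every control, the lowest control being control 2 at 1.93 FPKM and the others 11.7 to 38.7. The log2 difference was -0.90, and -0.72 without control 8 (unadjusted p = 0.108).

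Amino acid catabolism had 21 of 27 genes with lower and 2 with higher means in both groups, against 37.5% and 18.7% of all genes (median -0.21, and -0.27 to -0.10 over 39 alternatives). Gldc, a subunit of the glycine cleavage system, had 14.3 ± 5.28 FPKM in darkness, 10.2 ± 2.53 in DL.reuteri and 15.7 ± 2.22 in control livers, and Kmo, an enzyme of tryptophan breakdown, had 40.9 ± 9.24, 41.7 ± 16.9 and 56.3 ± 9.86 FPKM (SD, n = 8 each). Between DL.reuteri and darkness livers the difference was -0.42 for Gldc (limma, unadjusted p = 0.0266, adjusted p = 0.232). For Kmo it was -0.06 (unadjusted p = 0.788, adjusted p = 0.928). The pooled differences of Gldc and Kmo from control had unadjusted p of 0.018 and 0.0197, and neither passed the adjusted test. Fatty acid oxidation had 17 of 25 genes with lower means in both groups (median -0.19) and none at an unadjusted p under 0.05. Without DL.reuteri 3 its median was -0.036, with 0.0075 over all genes tested. Gluconeogenesis, the urea cycle, glycolysis and fatty acid synthesis had none at that threshold either.

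Of 29 xenobiotic genes, 4 had lower means at an unadjusted p under 0.05 (3.01% of all genes). In the list 13 had a lower mean and 5 a higher mean in both dark-housed groups (37.5% and 18.7% of all genes). The median log2 difference was -0.13, and -0.030 without DL.reuteri 3. Cyp2c22, a liver cytochrome P450, had 412 ± 178 FPKM in darkness, 221 ± 125 in DL.reuteri and 527 ± 149 in control livers (SD, n = 8 each), and 10 of 16 dark-housed livers lay below every control. The glutathione transferases Gstm1 (614, 366 and 657 FPKM) and Gsta2 (496, 308 and 544 FPKM, in the same order of groups) were lower mainly in DL.reuteri livers. Cyp1a1, induced by the aryl hydrocarbon receptor, was the fourth, with 0.595, 0.530 and 3.82 ± 6.36 FPKM, a control SD above its mean. Lpin2, a phosphatidate phosphatase of triglyceride synthesis, had 4.62 ± 3.47, 2.91 ± 1.51 and 7.02 ± 2.19 FPKM and a log2 difference of -0.89 ± 0.29 (SE, adjusted p = 0.902). It was the only 1 of 19 triglyceride and lipid droplet genes lower in both groups at an unadjusted p under 0.05. In that list 6 genes had lower and 3 higher means in both groups, 10 lay on opposite sides, and the median was -0.07.

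**Figure D4:**
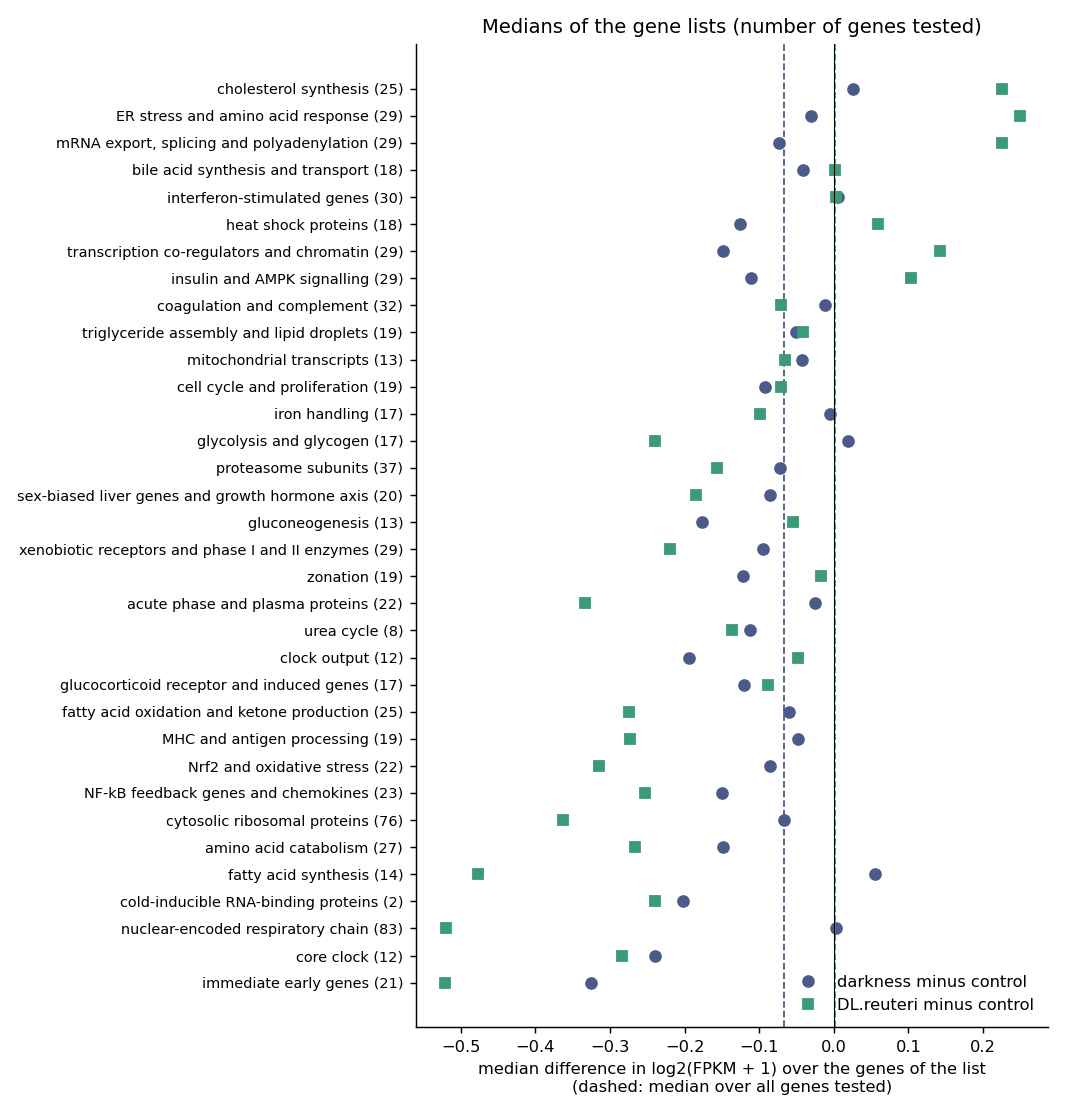
Median log2(FPKM + 1) difference from control in darkness livers (circles) and DL.reuteri livers (squares) over each of 34 gene lists, with the number of genes tested in brackets and dashed lines at the medians of all genes tested (-0.067 and 0.0022). Immediate early genes lie lowest when both groups are pooled (-0.33 and -0.52), and nuclear-encoded respiratory chain genes lie at 0.0037 in darkness and -0.52 in DL.reuteri livers.

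Several lists had a low pooled median with a median near 0 in darkness livers and a lower one in DL.reuteri livers, a difference between the 2 groups that was not tested for lists. Nuclear-encoded respiratory chain genes had a pooled median of -0.25 from 0.0037 in darkness and -0.52 in DL.reuteri livers, cytosolic ribosomal proteins -0.20 from -0.07 and -0.36, and fatty acid synthesis -0.22 from 0.06 and -0.48. Without DL.reuteri 3 these pooled medians were -0.10, -0.057 and -0.15. Among 83 respiratory chain genes Ndufa7, a subunit of complex I, was the 1 with a lower mean in both groups at an unadjusted p under 0.05, and among 76 ribosomal proteins there was none. Other genes at that threshold were Cat (catalase), Sesn2 (a stress-induced inhibitor of mTORC1), Lbp (lipopolysaccharide-binding protein) and Steap3 (a ferrireductase), all lower, and Axin2 (a Wnt target) and Rbm6 (a splicing regulator), both higher. Counted over the 34 lists, 28 had a median below that of all genes tested, and 26 without DL.reuteri 3 or without control 8. The lists of heat shock proteins, cold-inducible RNA-binding proteins, coagulation and complement, interferon-stimulated genes, MHC, cell cycle, co-regulators, mitochondrial transcripts and proteasome had no gene at an unadjusted p under 0.05 that lay on the same side in both groups.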

How the data were processed

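RNA was sequenced from 24 rat livers. According to the study's methods the authors trimmed reads with Seqtk, aligned them with HISAT2 2.0.4 to Rnor_6.0 and calculated FPKM with StringTie, and 1 table of FPKM per gene and library was deposited. The 16 darkness and DL.reuteri libraries, each group with its own mean, were compared with 8 control libraries in 1 limma 3.58.1 fit (R 4.3.3) over all 24 libraries, on log2(FPKM + 1), with a trended prior and the contrast (darkness + DL.reuteri)/2 minus control. Genes that reached 0.5 FPKM in 8 or more libraries were tested, two-sided, with Benjamini-Hochberg adjustment at 0.05. The rows of 9 genes (10 rows) were left out and are not reported here; unlike other rows above 0 in every library, they were written with at most 10 significant digits (median 15 elsewhere).

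Named were the 15 genes with the smallest p in each direction that lay on the same side of control in both dark-housed groups at a mean of at least 1 FPKM, all reported genes of both clock lists, and up to 3 genes of each other list under an unadjusted p of 0.05. Where rows shared a symbol, the row with the highest mean stood for it in the lists. Some further genes are tested in the fit but not reported here and stand in no list. The gene sets compared, the lists and the tests were chosen with earlier results of these data known, so no pattern here is independent evidence. Where several annotated copies share sequence, FPKM can be split between them. The fit was tested on simulated data. Alternatives changed the pseudocount, filter, scaling, covariates, weights, prior, block and libraries. Promoters came from RefSeq (GRCr8), another build than the alignment, and were matched by symbol. Versions used for the figures were Python 3.11.15 and matplotlib 3.10.9.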

Additional observations from a re-analysis of the deposited data

Results flagged for a closer look

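By chance, Dixon's 95% critical value for a library's gap to its nearest neighbour flags about 1 set in 20 of normally distributed values. Values without a log were used and need not be so distributed, so the count flagged is not set against chance. Of 249 sets of 8 libraries examined, 26 held a library whose gap exceeded that value. Among darkness livers these were the highest values of Cyp8b1 in darkness 7 (226 FPKM), AABR07070032.1 in darkness 1 (12.2 FPKM), Ccdc141 in darkness 2 (4.04 FPKM), Ccrn4l in darkness 8 (13.3 FPKM), Jund in darkness 7 (145 FPKM) and Hmgcs1 in darkness 3 (251 FPKM). Among DL.reuteri livers they were the highest values of Dapk1 (7.09 FPKM) and Pnpla3 (51.3 FPKM) in DL.reuteri 4, Clock in DL.reuteri 5 (5.37 FPKM), Lpin1 in DL.reuteri 1 (25.7 FPKM) and Nfkbia in DL.reuteri 7 (50.2 FPKM), and the lowest of Gsta2 (60.5 FPKM) and Ndufa7 (15.6 FPKM) in DL.reuteri 3. Among control livers, control 3 was highest for AABR07024058.3 (5.601 FPKM), Cyp2c13 (8.12 FPKM), Zfp385b (6.21 FPKM), Per3 (2.42 FPKM) and Dbp (1.76 FPKM), and control 8 was highest for Ano6 (4.91 FPKM), Coq10b (105.5 FPKM) and Tnfaip3 (10.2 FPKM). Control 4 was highest for Ccdc141 (3.49 FPKM) and Jund (168.6 FPKM), control 6 highest for Lbp (74.8 FPKM), control 1 lowest for Bhlhe40 (14.7 FPKM) and control 5 lowest for Lpin2 (2.17 FPKM).

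The dark-housed groups differed from each other, after adjustment over all genes tested, in 2 of the named genes. Pnpla3, a lipid droplet protein, had 77.0 ± 36.4 FPKM in darkness, 11.7 ± 16.4 in DL.reuteri and 88.3 ± 81.9 in control livers (SD, n = 8 each), a log2 difference between DL.reuteri and darkness of -3.14 (limma adjusted p = 0.0323). Ireb2, an iron-responsive RNA-binding protein, had 5.51 ± 1.29, 10.9 ± 2.65 and 6.03 ± 1.37 FPKM in the same order, a difference of 0.86 (limma adjusted p = 0.0323). Both lay on opposite sides of control in the 2 dark-housed groups and were not counted among the shared genes.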

How the results depend on the processing

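Of 82 named genes, none lost a call, since none had one, and 77 kept their direction under all 40 alternatives. Called genes appeared under 9 of the alternatives: Ptpn9 alone (1 higher) after scaling by median ratios or the 75th percentile, with the Ballgown library term, and without control 3, darkness 7 or DL.reuteri 3; Cyp8b1 and Ptpn9 (2 higher) after scaling to the FPKM sum outside mitochondrial transcripts; 3 higher and 1 lower with array weights; and 2 higher and 1 lower with the mitochondrial share as covariate. The cause was not tested. At an unadjusted p under 0.05, main counts of 161 higher and 366 lower became 270 higher (75th percentile), 346 higher (median ratios), 375 higher and 238 lower (non-mitochondrial sum), 393 higher (Ballgown term), 658 higher and 600 lower (array weights), 340 higher and 690 lower (mitochondrial share), 598 lower with no filter, where 18503 genes were tested, and 285 higher with DL.reuteri 2, DL.reuteri 3 and control 8 all left out, an alternative chosen after seeing the data. For genes at that threshold in both comparisons, 17 higher and 64 lower became 29, 42, 59, 51 and 33 higher (75th percentile, median ratios, Ballgown term, array weights and mitochondrial share), 30, 104 and 110 lower (non-mitochondrial sum, array weights and mitochondrial share), 118 lower with no filter and 27 higher without the 3 libraries. Leaving out 1 library at a time gave 0 to 1 called higher, 0 called lower, 113 to 332 higher (332 without DL.reuteri 3) and 302 to 454 lower, and in both comparisons 13 to 27 higher (27 without control 1 or darkness 7) and 46 to 81 lower.

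Signs turned in 5 genes, all with main differences of -0.17 or nearer to 0. Clock had 0.023 (non-mitochondrial sum) and -0.22 to 0.053 leaving out 1 library (above 0 without control 2, 4 or 6 or darkness 5). Nampt had 0.0046 (non-mitochondrial sum), 0.013 (Ballgown term) and -0.16 to 0.053 leaving out 1 library (above 0 without control 6 or DL.reuteri 3). Mfsd2a had 0.031 (non-mitochondrial sum), 0.051 (array weights), 0.114 without control 8 and DL.reuteri 2, 0.084 without the 3 libraries and -0.16 to 0.045 leaving out 1 library (above 0 without control 8). Usp2 had 0.035 with array weights, and Wee1 0.026 with array weights, 0.010 without control 8 and DL.reuteri 2 and 0.039 without the 3 libraries.

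With the number shared by 1 rat of each group as a replicate block, 166 genes were higher and 392 lower at an unadjusted p under 0.05 and 0 were called. Of 24 same-numbered pairs, 12 correlated above 0.1 (-0.392 to 0.595). Pairs with different numbers were not examined, so whether the numbers pair the rats was not tested. FPKM without counts limits the precision given to low genes.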

Other observations

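Among the 81 genes at an unadjusted p under 0.05 in both comparisons with control (17 higher and 64 lower), several outside the lists were named after their values were seen. Il1a, an inflammatory cytokine, averaged 5.84 FPKM over the 16 dark-housed livers and 9.67 FPKM over the control livers, and the matrix protease inhibitor Timp2 averaged 2.92 and 5.12 FPKM. Abcg8, a subunit of the transporter that secretes cholesterol into bile, averaged 0.998 and 2.18 FPKM, and the secreted antioxidant enzyme Gpx3 6.40 and 10.2 FPKM. The endothelial genes Emcn (2.46 and 3.63 FPKM) and Flt4 (2.77 and 3.77 FPKM) had lower means as well, with log2 differences of -0.45 and -0.35. Of the 11 sinusoidal endothelial markers tested, 5 had a lower mean in both groups (37.5% of all genes did), none stood at an unadjusted p under 0.05, and the median was -0.12. None passed the adjusted test.

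Of 8 neutrophil markers only 2, S100a8 and S100a9, reached the filter and were tested. These genes, which encode the subunits of calprotectin, had higher means in both dark-housed groups, as did 18.7% of all genes. Neither passed any threshold. S100a8 had 2.98 ± 1.88 FPKM in darkness, 5.56 ± 4.36 in DL.reuteri and 2.06 ± 1.37 in control livers, and S100a9 had 6.79 ± 3.05, 10.6 ± 8.91 and 5.46 ± 1.70 FPKM in the same order (SD, n = 8 each), with 95% intervals of the log2 difference from -0.14 to 1.39 and from -0.39 to 1.04.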
